A study of Mus musculus with 12 samples.

Results

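The 9 genes described here encode RNA-binding proteins that decide how long an mRNA survives, and they were chosen by gene symbol from a list of known regulators of mRNA decay. They are Zfp36, Zfp36l1, Zfp36l2, Rc3h1, Rc3h2, Zc3h12a, Zc3h12d, Elavl1 and Khsrp, 9 of the 55335 gene rows in each deposited count table. Each symbol matched 1 row and each row passed the filter on low counts in both assays. Thymocytes, the developing T cells of the thymus, came from 3 WT and 3 KO mice aged 6 weeks, WT standing for wild type and KO for miR-181a/b-1 KO, a genotype in which 1 cluster of microRNA genes, Mir181a-1 with Mir181b-1, is lost. RNA-seq and ribosome footprinting, which sequences the mRNA fragments that ribosomes shield from nuclease, each had 3 WT and 3 KO libraries. WT and KO cells alike were put straight into 0.1 mg/ml cycloheximide, a drug that stalls ribosomes on the mRNA. The labels do not say whether the deletion is limited to a cell type, nor which RNA-seq and footprint libraries share a mouse.

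AU-rich elements are stretches of A and U in the untranslated end of many short-lived mRNAs. Proteins of the ZFP36 family grip them with zinc fingers and bring in the enzymes that remove the poly(A) tail, whereas HuR, the product of Elavl1, binds related sequences and usually protects the mRNA. Roquins, from Rc3h1 and Rc3h2, and Regnases, from Zc3h12a and Zc3h12d, instead recognise small stem-loops, and Regnase-1 cuts the RNA itself. In thymocytes ZFP36L1 and ZFP36L2 are known to hold back proliferation and to act on Notch1 mRNA, and Roquin and Regnase-1 are known to restrain T cell activation.

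The microRNAs of the deleted cluster are shown because the genotype is defined by their loss. RefSeq (GRCm38.p6) lists 4 mature 5p sequences of the miR-181 family, printed 5′ to 3′ with the seed, bases 2 to 8, in capitals:
mmu-miR-181a-5p: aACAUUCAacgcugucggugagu
mmu-miR-181b-5p: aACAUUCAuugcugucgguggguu
mmu-miR-181c-5p: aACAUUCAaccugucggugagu
mmu-miR-181d-5p: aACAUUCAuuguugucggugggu
All 4 share the seed ACAUUCA, whose exact complement in an mRNA reads UGAAUGU. The a and b forms each have 2 source genes, of which the KO lacks 1 (Mir181a-1 or Mir181b-1) and keeps the other (Mir181a-2 or Mir181b-2). Counted from the first base, the a form, 23 bases long, differs from the b form, 24 bases long, by A9U, C10U and A21G over the shared length and by the extra last base of the b form, all outside the seed. Whether the 9 mRNAs carry the complement of the seed was not analysed here.

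The libraries held 4479182 to 8180286 reads in genes for RNA-seq and 4069968 to 17859770 for footprints, the fewest in footprint KO replicate 3. The row of Mir181a-1 held 132 to 166 CPM (edgeR's read counts scaled by library size and TMM) in WT footprints and 0.463 to 1.04 CPM in KO footprints, which fits those labels. In RNA-seq it held 57 reads in WT and 67 in KO, so it does not check the labels there, and directions in RNA-seq are those of the labels. The 13 thymocyte markers, such as Cd3e, Cd4, Cd8a and Rag1, were all detected and summed to 26580 to 27590 CPM in WT and 26040 to 27100 CPM in KO footprints. Of the 13 markers, 3 were called lower and 1 higher there, beside 8.34% and 9.25% of all genes tested. In RNA-seq the marker sums were lower without overlap in the libraries labelled KO, 14620 to 15760 CPM in WT and 13730 to 14500 CPM in KO. Of the 13 markers, 0 were called lower and 1 higher in RNA-seq, beside 3.43% and 3.48% of all genes tested. Of single genes in RNA-seq, 30.9% did not overlap. Deviations of equal-numbered WT and KO libraries from their group means mirrored each other across genes, at a correlation of -0.99 to -0.97 in RNA-seq and of -0.99 for each number in footprints. The deposited counts are named as adjusted by the authors, and with such mirroring the SDs and SEs below may not measure the spread between mice. Each call is therefore given beside its value with the replicate number as a block wherever the block ends the call. The marker calls are the exception and are given without the block.

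Zfp36l1 and Zfp36l2 were 2.02 and 2.71 times as high in KO footprints as in WT, while Zfp36, the founding member of their family, was near its WT level. Zfp36l2 also rose in RNA-seq. Zc3h12a rose in footprints by a smaller amount. The remaining 6 genes passed no test in either assay. A gene was called at an adjusted p (FDR, edgeR's quasi-likelihood test over all genes) under 0.05, and 3 of the 9 were called in footprints, all higher, where 9.25% of all 13509 genes tested were called higher. In RNA-seq 1 of the 9 was called, against 3.48% of 13652 genes called higher. With the block the counts were 2 in footprints, beside 1.89% of all genes called higher, and 1 in RNA-seq, beside 0.388%.

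**Figure D1:**
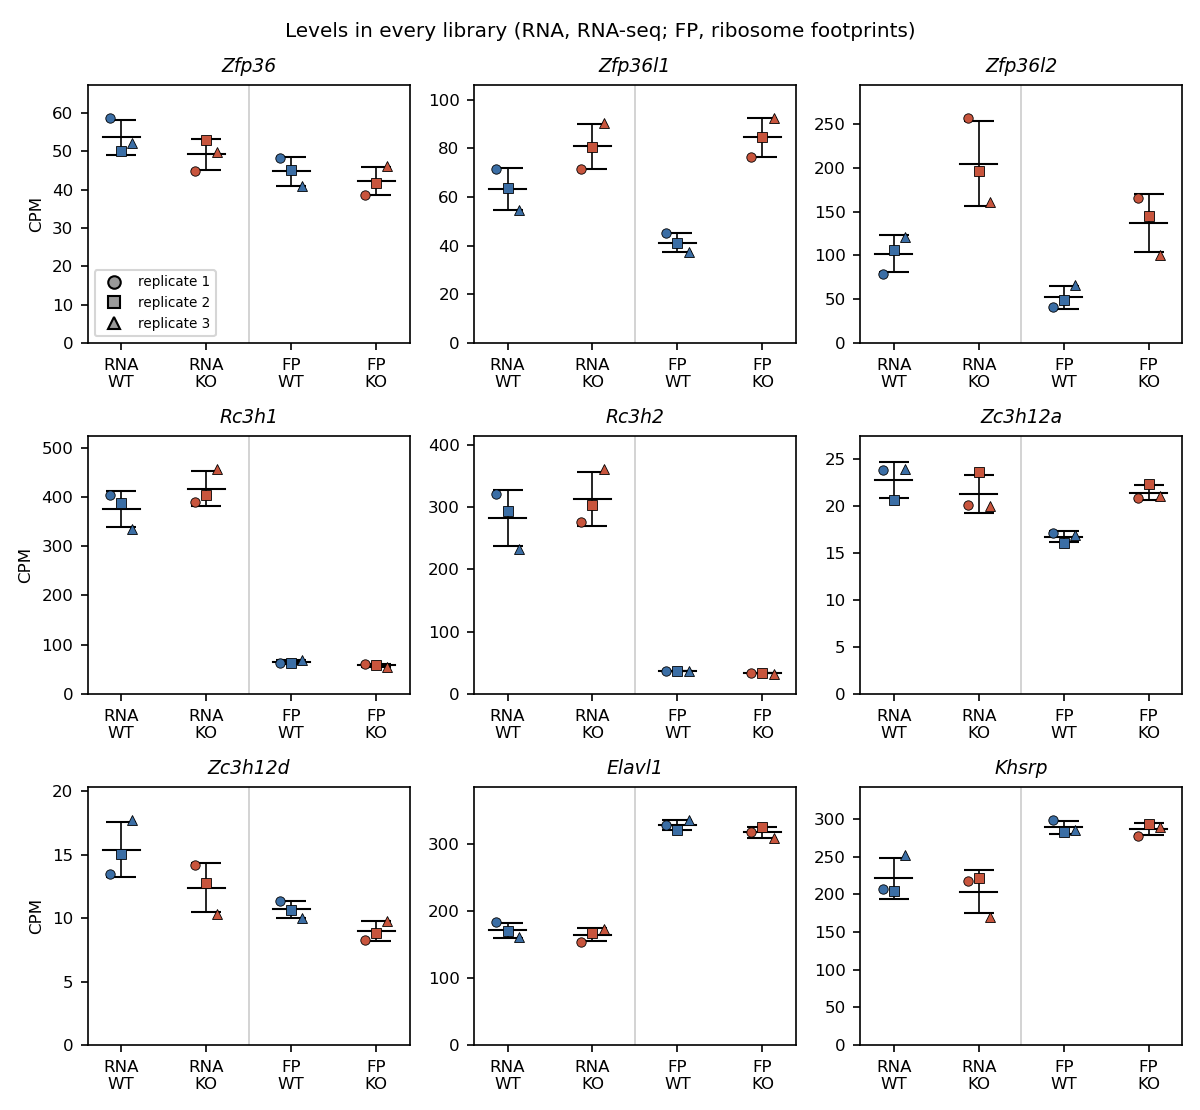
CPM of each regulator in the 12 libraries: points are single libraries shaped by replicate number, horizontal bars are group means and whiskers are SDs (n = 3). For Zfp36l1 and Zfp36l2 every KO footprint point lies above every WT point, while the points of Zfp36, Elavl1 and Khsrp overlap in both assays.

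Zfp36l2 (ENSMUSG00000045817.8), one of the 2 zinc-finger decay factors with a known role in lymphocyte development, had the largest fitted change of the 9 in both assays. In footprints it held 41.2, 49.0 and 66.4 CPM in WT replicates 1 to 3 and 165, 145 and 100.2 CPM in KO replicates 1 to 3. The lowest KO library stood above the highest WT library, and the replicate 3 libraries lay nearest to each other. The means were 52.2 ± 12.9 CPM in WT and 137 ± 33.3 CPM in KO (mean ± SD, n = 3), a log2 fold change of 1.44 (edgeR SE 0.22, FDR 0.00886). In RNA-seq the values were 79.0, 106 and 120.5 CPM in WT and 257, 197 and 161 CPM in KO, again without overlap. The means there were 102 ± 21.0 and 205 ± 48.2 CPM (mean ± SD, n = 3), a log2 fold change of 1.01 (edgeR SE 0.21, FDR 0.0435). The RNA-seq call was lost without any 1 of 5 of the 6 libraries, at FDR 0.0683 to 0.109 and log2 fold changes of 0.81 to 1.14, and held only without KO replicate 3 (0.0474). The footprint call held in all 6 omissions, at FDR 0.0371 or less. Both calls were also made with the block, barely so in RNA-seq (FDR 0.0499).

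Within equal-numbered libraries the size of the Zfp36l2 difference varied widely. The log2 ratio of KO to WT was 2.0, 1.57 and 0.59 for numbers 1, 2 and 3 in footprints and 1.70, 0.89 and 0.42 in RNA-seq. All 6 ratios were above 0, and number 1 gave the highest ratio in each assay. The footprint change was not shown to exceed the RNA change: the interaction of genotype and assay was 0.42 on the log2 scale (edgeR SE 0.32, FDR 0.601).

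Zfp36l1 (ENSMUSG00000021127.7), the paralog that acts with ZFP36L2 in lymphocytes, rose in footprints. There it held 45.2, 41.2 and 37.3 CPM in WT and 76.5, 84.7 and 92.4 CPM in KO. The groups lay far apart, with a gap wider than the whole range of either. The means were 41.2 ± 3.92 and 84.5 ± 7.95 CPM (mean ± SD, n = 3), a log2 fold change of 1.01 (edgeR SE 0.09, FDR 0.00159), and the call held with the block and in all 6 omissions of 1 library, at FDR 0.0114 or less.

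Its RNA-seq values were 71.4, 63.8 and 54.5 CPM in WT and 71.6, 80.5 and 90.3 CPM in KO. The groups only just missed overlapping, since WT replicate 1 and KO replicate 1 were nearly equal. The means were 63.2 ± 8.49 and 80.8 ± 9.35 CPM (mean ± SD, n = 3), and the log2 fold change of 0.36 (SE 0.13) was not called (edgeR FDR 0.151). The excess of the footprint change over the RNA change was 0.66 on the log2 scale (SE 0.16) and also missed the threshold (edgeR FDR 0.107). It passed in DESeq2 (adjusted p 0.0465), where 0.653% of genes were called, and when equal-numbered RNA-seq and footprint libraries were taken as 1 mouse (edgeR FDR 0.0279), where 0.143% were. Blocking by number inside each assay gave an FDR of 0.997.

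Zfp36 (ENSMUSG00000044786.6) encodes tristetraprolin, the best known binder of AU-rich elements, and is itself an immediate early gene, switched on within minutes of stimulation. Its footprints were 48.3, 45.0 and 40.9 CPM in WT and 38.7, 41.8 and 46.1 CPM in KO. Its RNA-seq values were 58.6, 50.03 and 52.1 CPM in WT and 44.8, 52.9 and 49.9 CPM in KO. The groups overlapped in both assays, and the log2 fold changes of -0.11 (edgeR SE 0.08, FDR 0.413) in footprints and -0.13 (edgeR SE 0.09, FDR 0.449) in RNA-seq were not called. The 3 paralogs thus gave different values under 1 contrast, though a difference between the paralogs themselves was not tested.

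Thymocytes were profiled in bulk, so fewer cells of a type and less RNA per cell cannot be told apart. Markers of other cells are therefore given beside these rises, with calls made without the block. Over all genes 9.25% were called higher and 8.34% lower in footprints, and 3.48% and 3.43% in RNA-seq. Single genes did not overlap between genotypes for 38.1% in footprints and 30.9% in RNA-seq. The summed footprint level of 7 macrophage and granulocyte markers was 282 to 383 CPM in WT and 357 to 519 CPM in KO, overlapping, with 1 of 6 tested markers called higher. In RNA-seq their sums did not overlap, at 67.63 to 78.76 CPM in WT and 79.71 to 97.23 CPM in KO, with 2 of 7 called higher. For 6 B cell markers the summed footprint level was 43.9 to 58.6 and 56.6 to 76.6 CPM, overlapping, with 1 of 6 called higher. For 5 markers of mature single-positive thymocytes, among them Ccr7 and Klf2, it was 523 to 556 and 566 to 605 CPM, with 1 of 5 called higher, whereas in RNA-seq the sums overlapped (322.1 to 333.1 and 316.2 to 331.4 CPM) and 2 of 5 were called lower. In footprints the 5 dendritic markers summed to 40.04 to 50.2 CPM in WT and 26.9 to 37.4 CPM in KO, with 2 of 4 called lower. Their RNA-seq sums did not overlap either, at 18.21 to 23.33 CPM in WT and 10.69 to 15.89 CPM in KO, with 1 of 5 called lower. In RNA-seq, 5 erythroid markers summed to 75.7 to 90.5 CPM in WT and 46.5 to 58.2 CPM in KO, with 1 of 5 called lower, and 10 stroma and epithelium markers to 219.3 to 222.8 and 242.6 to 248.7 CPM, with 1 of 7 called higher and 1 lower. Both sums overlapped in footprints. There the erythroid markers summed to 40.56 to 75.35 CPM in WT and 34.62 to 73.74 CPM in KO. The stroma and epithelium markers summed to 262.0 to 304.5 and 274.6 to 329.8 CPM. The summed level of the 5 markers of innate-like lymphocytes, such as Zbtb16 and Tbx21, was lower in KO without overlap in both assays. Their sums were 6.03 to 7.19 CPM in WT and 2.695 to 3.695 CPM in KO footprints, with 2 of 3 called lower. In RNA-seq they were 6.81 to 8.51 and 2.11 to 3.21 CPM, with the 1 marker tested called lower. Ncr1 of that list was at 0 reads in WT RNA-seq, and no other marker named in these lists was at 0 in either genotype. Their part in the rise of Zfp36l1 and Zfp36l2 was not tested.

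**Figure D2:**
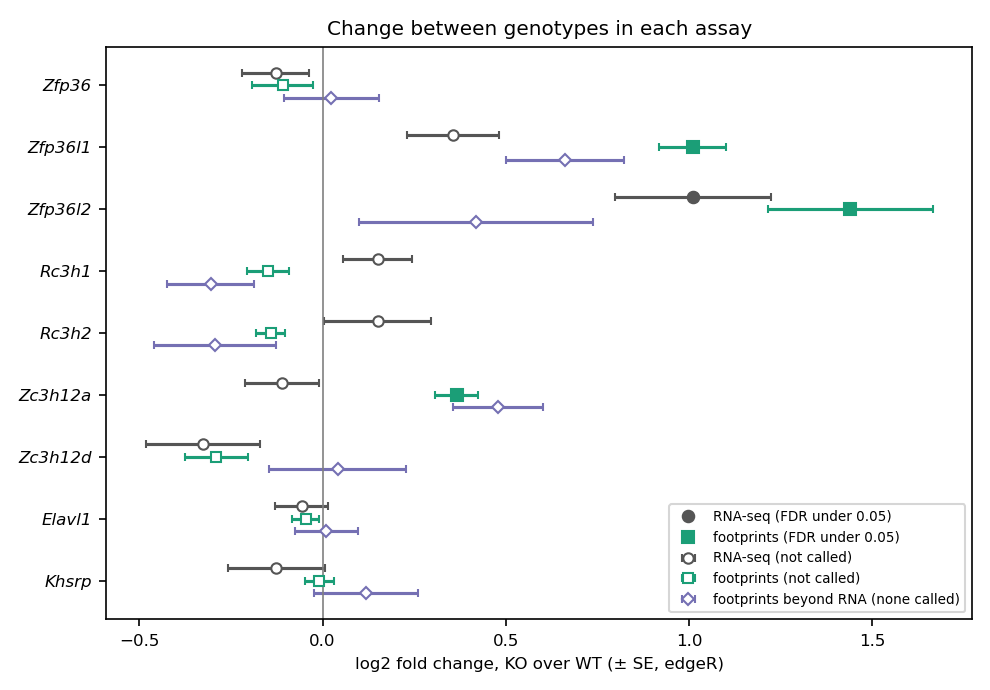
Log2 fold change of KO over WT with its SE (edgeR) for each gene in RNA-seq (circles), footprints (squares) and the interaction, footprints beyond RNA (diamonds). Filled symbols mark an FDR under 0.05: Zfp36l2 in both assays, Zfp36l1 and Zc3h12a in footprints alone, and no gene for footprints beyond RNA.

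Among the stem-loop nucleases, Zc3h12a (ENSMUSG00000042677.7), which encodes Regnase-1, was higher in KO footprints. It held 17.1, 16.0 and 16.9 CPM in WT and 20.8, 22.3 and 21.1 CPM in KO, resting on 86 to 344 reads per library. The KO libraries lay together above the WT libraries, and the means were 16.7 ± 0.593 and 21.4 ± 0.79 CPM (mean ± SD, n = 3). The log2 fold change was 0.37 (edgeR SE 0.06, FDR 0.00944), but the call was lost with the block (FDR 0.208), in DESeq2 (adjusted p 0.0946) and without KO replicate 2 (edgeR FDR 0.0555). In RNA-seq the values of 23.8, 20.6 and 23.9 CPM in WT overlapped with 20.1, 23.6 and 20.02 CPM in KO. The RNA-seq log2 fold change had the other sign, -0.11 (edgeR SE 0.10, FDR 0.562), and the interaction of 0.48 (SE 0.12) was not called (edgeR FDR 0.122).

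Zc3h12d (ENSMUSG00000039981.6), the Regnase paralog with the fewest reads of the 9, was lower in the means of both assays without passing the test. Its footprints were 11.4, 10.7 and 10.02 CPM in WT and 8.24, 8.82 and 9.80 CPM in KO, which did not overlap. The log2 fold change was -0.29 (edgeR SE 0.09, FDR 0.0662), and -0.33 (edgeR SE 0.16, FDR 0.266) in RNA-seq, where WT spanned 13.5 to 17.7 CPM and KO 10.3 to 14.1 CPM. The 2 Regnase genes therefore lay on opposite sides of 0 in footprints. RefSeq lists Mir5104 and the small nucleolar RNA gene Gm24726 as overlapping Zc3h12d, and Snord90 as overlapping Rc3h2, and reads shared with them were not separated here.

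Rc3h1 (ENSMUSG00000040423.10) encodes Roquin-1, whose mutation in sanroque mice causes lupus-like autoimmunity, and Rc3h2 (ENSMUSG00000075376.10) encodes its partly redundant paralog Roquin-2. Rc3h1 footprints were 62.9, 63.1 and 68.9 CPM in WT and 59.98, 59.6 and 54.1 CPM in KO. Rc3h2 footprints were 36.7, 36.7 and 37.6 CPM in WT and 33.8, 33.7 and 32.8 CPM in KO. Neither gene's groups overlapped, each KO library being a little lower, yet the log2 fold changes of -0.15 (edgeR SE 0.06, FDR 0.123) and -0.14 (edgeR SE 0.04, FDR 0.0762) were not called.

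In RNA-seq both Roquin genes had higher means in the libraries labelled KO, with overlapping groups. Rc3h1 spanned 335 to 403 CPM in WT and 389 to 456 CPM in KO, a log2 fold change of 0.15 (edgeR SE 0.09, FDR 0.395). Rc3h2 spanned 233 to 321 CPM in WT and 276 to 360 CPM in KO, also 0.15 (edgeR SE 0.15, FDR 0.585). The footprint change minus the RNA change was -0.30 (edgeR SE 0.12, FDR 0.28) for Rc3h1 and -0.29 (edgeR SE 0.17, FDR 0.467) for Rc3h2, so neither shift in translation was called. Across the 12 libraries, with each assay centred on its own mean, their levels correlated at r = 0.915, a description of libraries that share depth and mirrored deviations.

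Elavl1 (ENSMUSG00000040028.10) and Khsrp (ENSMUSG00000007670.10), the widely expressed RNA stabiliser HuR and the decay-promoting KH-domain protein KSRP, showed the smallest differences in footprints. Elavl1 footprints were 328, 321 and 336 CPM in WT and 319, 325 and 309 CPM in KO, a log2 fold change of -0.05 (edgeR SE 0.04, FDR 0.433). Khsrp footprints were 299, 283 and 286 CPM in WT and 278, 294 and 289.8 CPM in KO, a log2 fold change of -0.01 (edgeR SE 0.04, FDR 0.911). Both sets of values overlapped and varied by only a few percent within a group. RNA-seq gave -0.06 (edgeR SE 0.07, FDR 0.691) for Elavl1 and -0.13 (edgeR SE 0.13, FDR 0.617) for Khsrp.

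**Figure D3:**
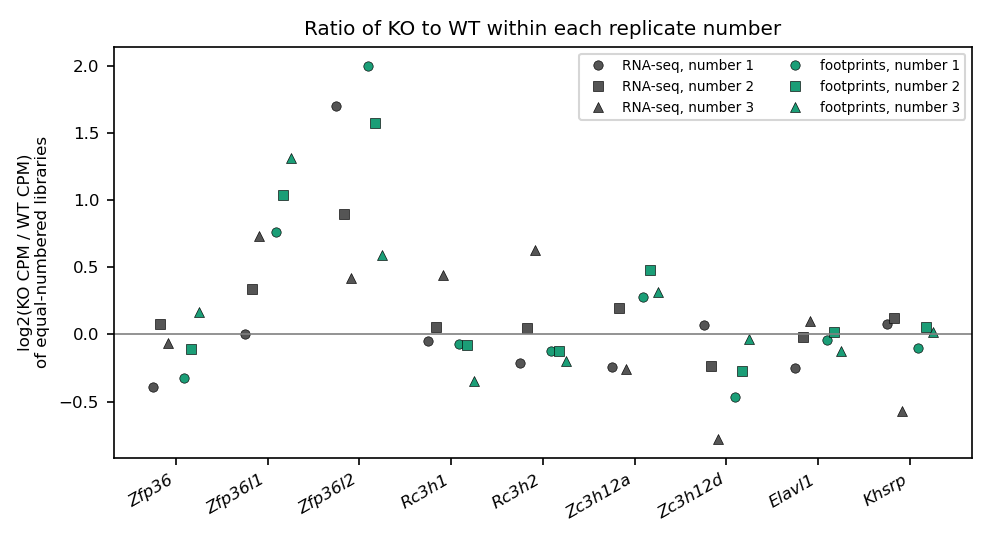
Log2 ratio of KO to WT CPM for libraries with the same replicate number, per gene, in RNA-seq (grey) and footprints (green), shaped by number. All 3 ratios are above 0 for Zfp36l1 and Zfp36l2 in both assays (number 1 of Zfp36l1 in RNA-seq barely, at 0.00311) and for Zc3h12a in footprints, and all 3 are below 0 for Rc3h1, Rc3h2 and Zc3h12d in footprints.

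Counted over the 9 genes, the genotypes did not overlap in footprints for 6, of which 3 were higher and 3 lower in KO, where 38.1% of all tested genes did not overlap. In RNA-seq they did not overlap for 2, Zfp36l1 and Zfp36l2, where the share was 30.9%. The median log2 fold change of the 9 was -0.05 in footprints and -0.06 in RNA-seq, beside -0.01 and 0.00 over all tested genes (-0.00904 and -0.000534 before rounding). No gene of the 9 was called for translation, where 0.211% of 11854 genes were called by the edgeR interaction test. By that test 3 of the 9 had an unadjusted p under 0.05, as had 1660 of the 11854 genes. DESeq2 called 1, Zfp36l1, where 0.653% of genes were called. The 9 therefore did not move as a set: 2 zinc-finger genes and Zc3h12a rose in footprints while 6 had log2 fold changes between -0.29 and -0.01. The authors' deposited table gives the same sign for all 9 in footprints and calls Zfp36l1 and Zfp36l2 higher there, with adjusted p of 8.57e-18 and 5.9e-05. The authors' deposited table gives footprint log2 fold changes of 0.929 (SE 0.101) for Zfp36l1 and 0.831 (SE 0.172) for Zfp36l2, beside the fitted 1.01 and 1.44. DESeq2 as run here gave 1.021 (SE 0.111, adjusted p 9.51e-18) for Zfp36l1 and 1.395 (SE 0.288, adjusted p 5.54e-05) for Zfp36l2. These adjusted p lie near the authors' while the Zfp36l2 fold changes do not. The fold changes may thus be on unlike scales, and their order is not compared. For RNA-seq the authors' deposited table calls Zfp36l2 alone of the 9, with an adjusted p of 2.41e-06, and for Zc3h12a in footprints it gives 0.0922.

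The ratio of footprint CPM to RNA-seq CPM sets a gene's share of footprint reads against its share of RNA-seq reads. Neither share is scaled by length, so a rank of genes by this ratio is not a rank of how well they are translated. The Roquin genes stood lowest of the 9 in WT, at log2 ratios of -2.53 (SE 0.09, n = 3) for Rc3h1 and -2.92 (SE 0.14) for Rc3h2. Only 6.23% and 4.38% of the 11854 genes tested in both assays had lower ratios, and the median gene stood at -0.20. Elavl1 stood highest at 0.94 (SE 0.06), above 80.9% of genes, and Khsrp followed at 0.39 (SE 0.10). The steps from Rc3h2 to Rc3h1 and from Khsrp to Elavl1 were 2.4 and 4.6 times the SE of the difference.

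The ZFP36 and Regnase genes lay between these ends in WT. Zfp36 stood at -0.26 (SE 0.10), Zc3h12a at -0.44 (SE 0.08), Zc3h12d at -0.52 (SE 0.13), Zfp36l1 at -0.61 (SE 0.14) and Zfp36l2 at -0.97 (SE 0.27). Neighbours among these 5 differed by at most 1.5 times the SE of their difference, so their order is not resolved, while Rc3h1 lay below Zfp36l2 by 5.5 times and Khsrp above Zfp36 by 4.6 times that SE. In KO, Zfp36l1 stood at 0.07 (SE 0.13) and Zc3h12a at 0.01 (SE 0.08), the 2 genes whose ratio moved most, while Zfp36 (-0.22) and Elavl1 (0.95) stayed within 0.05 of WT. The fitted interactions were 0.66 for Zfp36l1, 0.48 for Zc3h12a, 0.02 for Zfp36 and 0.01 for Elavl1, none of them called by edgeR without a block. What else enters the ratio was not tested.

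**Figure D4:**
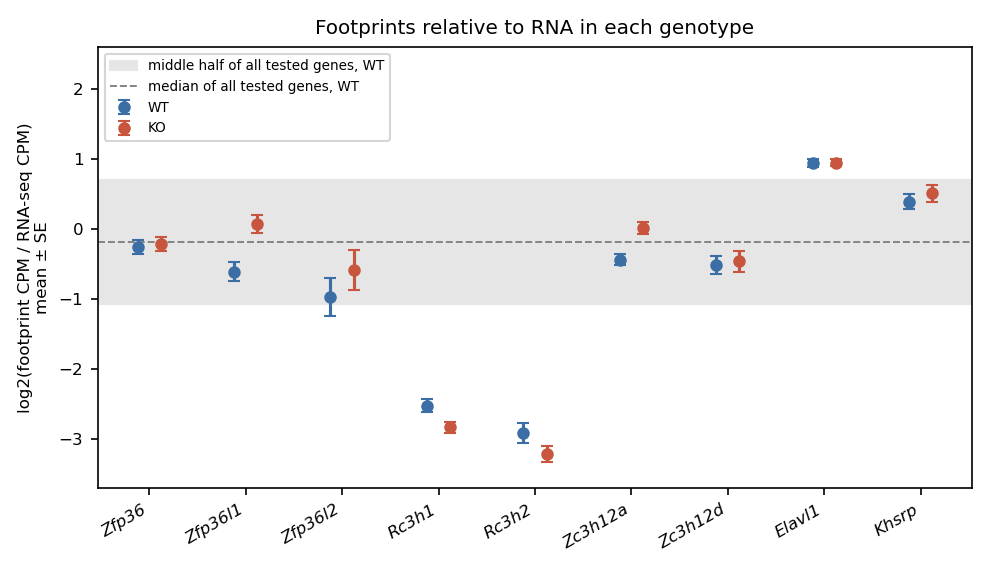
Mean log2 ratio of footprint to RNA-seq CPM in WT and KO for each gene, with its SE (3 libraries per assay and genotype); the grey band spans the quartiles of all genes tested in WT, -1.08 to 0.70, and the dashed line is their median, -0.20. Rc3h1 and Rc3h2 lie far below the band and Elavl1 above it.

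Some genes followed the changed members closely over the 12 libraries, on log2(CPM + 1) centred within each assay, among 8100 genes whose mean log2 CPM was 3 or more in both. Nearest to Zfp36l1 were Zkscan1, a zinc-finger gene (r = 0.988), Dusp6, an ERK phosphatase and known miR-181 target (r = 0.983), and Mcur1, a mitochondrial calcium uptake factor (r = 0.980). Dusp6 was called higher in footprints, like Zfp36l1, at a log2 fold change of 0.76 (edgeR FDR 0.000665). Nearest to Zfp36l2 were Kat7 (r = 0.995), Ddit4, a stress-induced brake on mTOR signalling (r = 0.979), and Pcyox1 (r = 0.976). Ddit4 was called higher in footprints with a log2 fold change of 1.59 (edgeR FDR 0.0018), whereas Kat7 had 0.13 (edgeR FDR 0.0567): likeness here is of shape and not of size. Near to Zc3h12a were Gm16565 (r = 0.972) and Snrk (r = 0.969). All these libraries share the mirrored deviations, so the coefficients describe the tables and carry no test.

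The proteins around the 9 regulators were followed through lists of known partners. Of 21 other binders of AU-rich elements and paralogs of the 9, 17 were tested in footprints: Celf1, Celf2 and Arid5a were called higher and Hnrnpab lower (17.6% of all genes were called in either direction), and none was called with the block, where 3.02% were. Arid5a, which protects stem-loop mRNAs from Regnase-1, had a log2 fold change of 0.31 (edgeR SE 0.07, FDR 0.0262; block 0.222). The list's median log2 fold change was -0.03 in footprints and 0.06 in RNA-seq. In RNA-seq 1 of 18 tested was called, Elavl3, the neuronal paralog of HuR, lower at 34 reads in WT and 7 in KO (edgeR FDR 0.0312; block 0.19), beside 6.91% of all genes called in either direction and 3.43% called lower.

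Of 16 cofactors and regulators, all were tested, and in footprints 4 were called higher, among them Bcl10, Btrc and Ywhag, beside 9.25% of all genes called higher. BCL10 acts with MALT1, the protease that cuts Regnase-1 and Roquins. Bcl10 went from 38.6 ± 0.856 to 44.1 ± 1.01 CPM (mean ± SD, n = 3; log2 change 0.20, edgeR FDR 0.0238). Malt1 itself was lower in its mean, at -0.26 (SE 0.09), and not called (edgeR FDR 0.0879), and Nufip2, the Roquin cofactor, had -0.18 (edgeR FDR 0.0546). With the block 0 of the 16 were called (block FDR 0.395 for Bcl10). In RNA-seq 1 was called, Tnfaip3, higher at 0.33 (edgeR FDR 0.0215; block 0.418), beside 3.48% of all genes. The list's median log2 fold change was 0.08 in footprints and 0.02 in RNA-seq.

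Of 35 genes of the decapping and decay machinery that carries out what these regulators start, 34 were tested. In footprints Exosc9, Exosc2, Lsm4 and Pan3 were called lower, beside 8.34% of all genes, and Patl1 higher, and in RNA-seq none was called (edgeR) at a median of 0.01. Exosc9, an exosome subunit, fell in footprints from 68.2 ± 1.65 to 55.7 ± 1.58 CPM (mean ± SD, n = 3; -0.29, edgeR FDR 0.00612; block 0.145). The list's median log2 fold change in footprints was -0.04 and its largest called fall was that of Exosc2 (-0.37). With the block 0 of the 34 were called.

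Messages known to be bound by the ZFP36 proteins were next. Of 20 such mRNAs, 13 were tested in footprints and 11 in RNA-seq, since cytokine genes such as Ifng and Il10 had too few reads. One was called, Myc, which fell in footprints from 181 ± 0.999 to 159 ± 1.28 CPM (mean ± SD, n = 3; log2 change -0.19, edgeR FDR 0.00917; block 0.29). Notch1 had log2 fold changes of 0.12 (edgeR SE 0.04, FDR 0.109) in footprints and 0.05 (edgeR SE 0.12, FDR 0.86) in RNA-seq, and Ccnd3, a cyclin bound by ZFP36L1 and ZFP36L2 in lymphocytes, -0.15 (edgeR SE 0.06, FDR 0.178) and -0.13 (edgeR SE 0.08, FDR 0.393). The list's median was -0.14 in footprints and 0.05 in RNA-seq. Beside the higher footprints of Zfp36l1 and Zfp36l2, 1 of these 13 messages was thus called in footprints, lower, and none of 11 in RNA-seq by edgeR. Over all genes 8.34% and 3.43% were called lower, so both counts are near the background.

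Among 18 mRNAs known to be bound by Roquin or Regnase-1, 16 were tested in footprints and 13 in RNA-seq. In footprints 4 were called higher, Il2ra, Nfkbiz, Nfkbid and Egr1, beside 9.25% of all genes, and 2 of them, Il2ra and Egr1, also with the block (FDR 0.0446 and 0.0491), where 1.89% of all genes were called higher. Il2ra, the alpha chain of the interleukin-2 receptor, rose in RNA-seq from 52.9 ± 4.93 to 95.2 ± 8.04 CPM (mean ± SD, n = 3; log2 change 0.85, edgeR SE 0.10, FDR 0.00675; block 0.0198) and in footprints from 92.6 ± 1.62 to 120.0 ± 2.45 CPM (0.38, edgeR SE 0.03, FDR 0.00159). Icos and Tnfrsf4, the classic stem-loop targets, had -0.01 (edgeR SE 0.15, FDR 0.98) and -0.28 (edgeR SE 0.08, FDR 0.0508) in footprints. The list's median was 0.10 in footprints and 0.20 in RNA-seq.

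Immediate early genes, the class to which Zfp36 belongs, were the list with the most calls. Of 17 tested in footprints, 8 were called higher, among them Klf6, Ier2, Egr3, Nr4a1 and Nr4a3, and 2 lower, Jun and Dusp1, beside 9.25% of all genes called higher and 8.34% lower. With the block 4 were called higher, Klf6, Nr4a1, Nr4a3 and Egr1, beside 1.89% of all genes. Egr1 is also on the list of Roquin and Regnase-1 mRNAs above, so both lists count the same call. Klf6 rose from 56.8 ± 2.12 to 92.6 ± 3.30 CPM (mean ± SD, n = 3; log2 change 0.70, edgeR SE 0.05, FDR 0.000481), while Jun fell from 11.1 ± 0.632 to 6.75 ± 0.453 CPM (-0.69, edgeR FDR 0.00474; block 0.0755). The list's median was 0.25 in footprints and -0.01 in RNA-seq, where 1 of 16 was called, Nr4a2, higher (edgeR FDR 0.0262; block 0.216), beside 3.48% of all genes. Zfp36, at -0.11 in footprints, was not among those that rose.

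**Figure D5:**
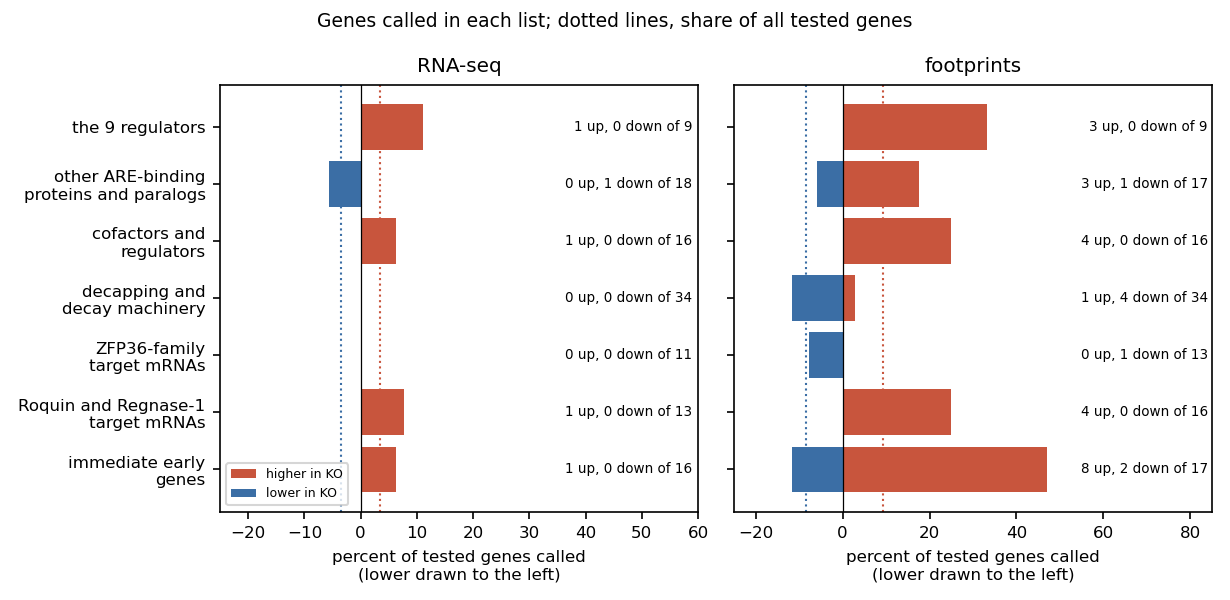
Percent of tested genes called higher (red, right) and lower (blue, left) in KO for the 9 regulators and the 6 lists around them; dotted lines mark the same percentages over all tested genes. In footprints the immediate early genes have the longest bar, 8 of 17 called higher, and the ZFP36-family targets have none higher and 1 of 13 lower.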

How the data were processed

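Whole-number read counts per Ensembl gene were deposited, 1 table per assay with 55335 gene rows; per the labels' descriptions the authors named the tables adjusted, and no label says what was adjusted. Rows for reads outside genes, with several alignments or ambiguous were left out; 27.0% to 28.5% of counted reads lay in genes in RNA-seq and 72.3% to 73.1% in footprints. The submitters' processing notes name FastQC, Bowtie2 2.5.1, STAR 2.7.10a, HTSeq 2.0.3 and DESeq2 1.40.2; the build and strandedness: not given in the sources used here. Other values deposited by the authors are their own comparisons of KO with WT per assay; their 12 per-library columns were not used.

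RNA-seq and footprint counts were fitted separately in R 4.3.3 (edgeR 4.0.16): TMM, filterByExpr (minimum count 10) and the quasi-likelihood test, adjusted over all genes by Benjamini-Hochberg. Translation is the genotype by assay interaction over 12 libraries. SE is the log2 fold change divided by the square root of F. The scripts were tested on simulated data. Alternatives were RLE factors, DESeq2 1.42.0, no low-count filter, a joint fit of all libraries, a block for the replicate number, FDR limits of 0.1 or with at least 1.5-fold, and leaving out libraries in turn. The design names 3 WT and 3 KO mice. The p-values rest on the spread between libraries, which with the mirrored deviations may not be that between mice.

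Named genes are the 9 members, up to 3 per list and assay with the smallest p, and the 3 most alike per called member; Arid5a, Ywhag, Malt1, Nufip2, Exosc2, Patl1, Notch1 in RNA-seq, Ccnd3, Icos, Tnfrsf4, Egr1, Egr3, Nr4a1, Nr4a3 and Dusp1 were chosen after their values were seen. The members and lists were chosen with earlier results of these data known. Gene lengths on the files' build were not used here, so levels are not ranked between genes and scaling by coding length was not run. The ratios of footprints to RNA-seq are ranked without such scaling. One gene that the rule names is not reported here.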

Additional observations from a re-analysis of the deposited data

Results flagged for a closer look

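By edgeR's interaction test, the KO changes of 2 named genes were unequal between footprints and RNA-seq. The row of Mir181a-1 gave -7.80 on the log2 scale (SE 0.63, FDR 0.000326), on 6803 WT and 25 KO reads in footprints and 57 and 67 in RNA-seq. Mir181a-1 is a microRNA gene of the deleted cluster, so its fall in footprints was fixed by the genotype and is not read as translation. Egr3, an immediate early gene chosen after its values were seen, gave 1.09 (SE 0.18, FDR 0.0277), which was lost when blocked by number inside each assay (FDR 0.997), in DESeq2 (adjusted p 0.0644) and without the low-count filter (FDR 0.0549). With 1 library left out, the immediate early genes had no translation call in 11 of 12 fits and 1 without RNA-seq KO replicate 2.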

How the results depend on the processing

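The count of regulators called in RNA-seq, 1, was 1 under RLE factors, DESeq2, no low-count filter, the replicate block and the joint fit, and 0 to 1 with 1 library left out. The count in footprints, 3, was 2 with the replicate block and in DESeq2, and 5 at an FDR under 0.1, with Rc3h2 and Zc3h12d added. For translation 0 were called, against 1 (Zfp36l1) in DESeq2 and 1 with the replicate block by mouse; the cause was not tested. Sign changes were seen for uncalled values alone: the Zc3h12d interaction was -0.002 with the replicate block by mouse, and with 1 library left out it ranged from -0.09 to 0.16, that of Zfp36 from -0.042 to 0.09, that of Elavl1 from -0.039 to 0.05, and the Khsrp footprint change from -0.029 to 0.021. Over all genes 943 RNA-seq and 2376 footprint calls became 110 and 408 with the replicate block and 539 and 1253 in DESeq2, and 25 translation calls became 2 with the block inside each assay, 17 by mouse and 65 in DESeq2. Equal replicate numbers tied WT and KO libraries together by mirrored deviations, at correlations of -0.99 to -0.97, against 0.17 to 0.72 for unequal numbers. The labels do not say whether equal numbers are pairs, and the sign of these correlations in adjusted counts cannot decide it. The block changed no call of the 9 other than that of Zc3h12a in footprints and, by mouse, that of Zfp36l1 for translation. With 40 reads in its thinnest footprint library, Zc3h12d is the gene that depth limits most.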
